A study of Mus musculus with 4 samples.

Results

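The interleukin-6 family was examined through 10 genes in mouse skin: the ligand genes Il6, Il11, Lif and Osm, the receptor genes Il6ra, Il6st, Osmr and Il31ra, and Stat3 and Socs3. They were found by symbol in the platform annotation of an Affymetrix MoGene 1.0 ST array, where they are covered by 11 transcript clusters out of 35557. Each cluster pools the probes that lie along one gene's exons into a single log2 signal. The 10 genes are part of 19938 genes named here. Total RNA of whole skin from C57BL/6 mice was hybridised to 4 arrays in 2 groups of 2. Every mouse was heterozygous for Tnfrsf1a, the gene of a TNF receptor, and carried at least 1 floxed allele of Cflar, which encodes the death receptor inhibitor cFLIP. The no K5-Cre group held replicate 1, genotype CflarF/+;Tnfrsf1a+/-, and replicate 3, genotype CflarF/F;Tnfrsf1a+/-. Replicates 2 and 6 made up the group labelled K5-Cre, both with the genotype CflarF/F;K5-Cre;Tnfrsf1a+/-, in which Cre is driven by a keratin 5 promoter that is active in basal keratinocytes. The study asked which genes might hold back differentiation of the epidermis and growth of its keratinocytes. Age, sex, body site and batch are not in the labels, nor is the number of animals behind an array, so the p-values measure only the spread between these arrays, which may be technical.

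Cytokines of this family bind a receptor chain of their own and then recruit Il6st, a signalling chain shared by most of them. Kinases of the JAK family on these chains phosphorylate STAT3, which enters the nucleus and switches on target genes. One target is Socs3, whose product binds the receptor and its kinases and shuts the signal off. Oncostatin M signals through Osmr paired with Il6st, and interleukin-31, a cytokine known for causing itch, signals through Osmr paired with Il31ra. In skin, keratinocytes carry Osmr and respond to oncostatin M, which is made largely by myeloid cells and T cells.

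Of the 10 genes, 8 rose in the skin labelled K5-Cre, 1 fell and 1 did not pass the test. The 8 that rose were all 4 ligand genes, the receptor genes Il6ra and Osmr, and Stat3 and Socs3, while the receptor gene Il31ra fell and the shared chain Il6st did not pass. Among all genes tested, 30.8% rose and 27.9% fell, 58.7% in all, so changes of this kind were common on these arrays. The median difference was 0.94 on the log2 scale over the 10 genes and 0.11 over all genes. Groups did not overlap for 9 of the 10 genes, 8 of them higher and 1 lower in K5-Cre, and the same held for 84.6% of all genes, with 47.6% higher and 37.0% lower. With either no K5-Cre array left out, fewer of the 10 genes passed, and so did fewer of all genes. A gene was called at an adjusted p under 0.05 in limma's moderated test over all named genes with Benjamini-Hochberg adjustment, 2 arrays against 2. Permuting 2 arrays against 2 exactly has a smallest two-sided p of 0.333, so the calls rest on limma's variance model. With 1 array left out, the spread within a group comes from the other pair alone. The median gap over all genes was 0.17 in the K5-Cre pair and 0.08 in the no K5-Cre pair. A call lost without a no K5-Cre array thus does not by itself show dependence on that array or its genotype. In whole skin, more cells of a type and more RNA per cell cannot be told apart.

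**Figure D1:**
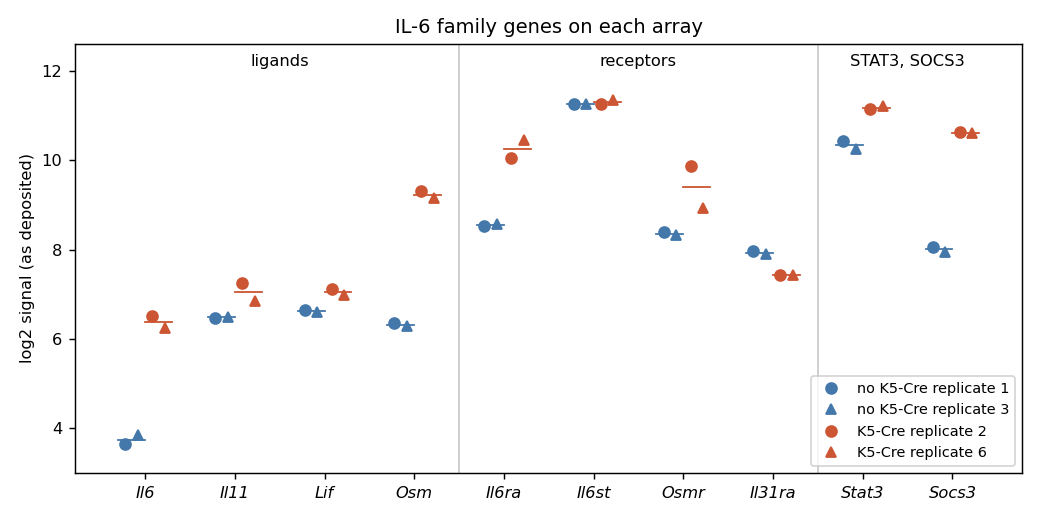
Log2 signal of the 10 genes (vertical axis) on each of the 4 arrays, blue for no K5-Cre and red for arrays labelled K5-Cre. Short lines are group means. Osm, Il6 and Socs3 show the widest gaps between groups, Il6st shows none, and the red points of Osmr lie far apart.

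Osm, which encodes oncostatin M, changed most among the 10 genes. Its log2 signal was 6.35 and 6.28 in no K5-Cre replicates 1 and 3, and 9.30 and 9.15 in K5-Cre replicates 2 and 6. Both arrays labelled K5-Cre were far above both others, with gaps inside each pair of 0.15 or less. The rise was 2.91 ± 0.10 (log2 difference ± moderated standard error, SE, n = 2 per group, adjusted p = 3.73e-05), which is 7.54-fold, and 99.0% of all genes had a lower difference. The cluster lies on chromosome 11 from 4136423 to 4141029, plus strand, of build mm9.

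Il6 encodes interleukin-6 itself, a cytokine of inflammation and of the acute phase. It read 3.65 and 3.85 without K5-Cre and 6.51 and 6.25 in replicates 2 and 6 labelled K5-Cre, again with no overlap. The difference was 2.63 ± 0.14 (adjusted p = 0.000101), or 6.19-fold, on chromosome 5 from 30339684 to 30346508, plus strand (mm9). In no K5-Cre replicate 1 the Il6 signal was above that of only 3.50% of all clusters, and detection above background could not be judged from the files, so this fold belongs to the deposited scale. A second deposited table, with a linear signal made in another way, gave log2 values of 5.29 and 5.35 without K5-Cre and 7.35 and 6.999 with it, a difference of 1.85 or 3.61-fold. That table, which the authors limited to clusters past a 4-fold change against no K5-Cre replicate 1, holds 3 of the 11 clusters, those of Il6, Osm and Socs3. It gave smaller differences for the other two as well, 2.45 for Osm and 2.40 for Socs3. The authors' log2 folds in this same deposited table rest on the same signals and are no further measurement. For Il6 the authors' log2 fold against no K5-Cre replicate 1 was 2.06 in replicate 2 and 1.71 in replicate 6. It was 0.06 in replicate 3, which carries no K5-Cre. For Osm the authors' deposited table gave 2.47, 2.33 and −0.09 in the same order.

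Il11, whose product acts on stromal and blood-forming cells, and Lif, whose product is best known for its action on stem cells, rose far less. Il11 read 6.47 and 6.49 without K5-Cre, and 7.25 and 6.86 in replicates 2 and 6. The rise was 0.57 ± 0.15 (adjusted p = 0.0199). Lif read 6.64 and 6.59 against 7.11 and 6.98, a rise of 0.43 ± 0.10 (adjusted p = 0.0134). Neither pair of groups overlapped, but each difference was smaller than 1 log2 unit and each gene lay below the median of all clusters, 7.61. Low signals were in general higher on the arrays labelled K5-Cre, as a split of all genes by mean level, made after the data were seen, showed. Genes were put in 4 level groups of equal size. In the lowest group, which holds Il6, the median difference was 0.30, and 39.6% of genes rose and 6.82% fell. In the second, which holds Il11, Lif, Osm and Il31ra, it was 0.13, and 33.5% rose and 27.2% fell. The third, with Osmr, had 22.2% higher and 41.0% lower, and the highest, with Il6ra, Il6st, Stat3 and Socs3, had 28.0% higher and 36.7% lower. Il11 and Lif thus rose in a range of signal where rises were the commoner call. Quantile normalization left 0.50 for Il11 (adjusted p = 0.0459) and 0.36 for Lif (adjusted p = 0.0328). It did not remove the shift at their level, where the median difference was 0.14 after it. With no K5-Cre replicate 1 left out both genes missed the threshold (adjusted p = 0.101 for Il11 and 0.0847 for Lif), as with replicate 3 left out (0.0879 and 0.1).

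**Figure D2:**
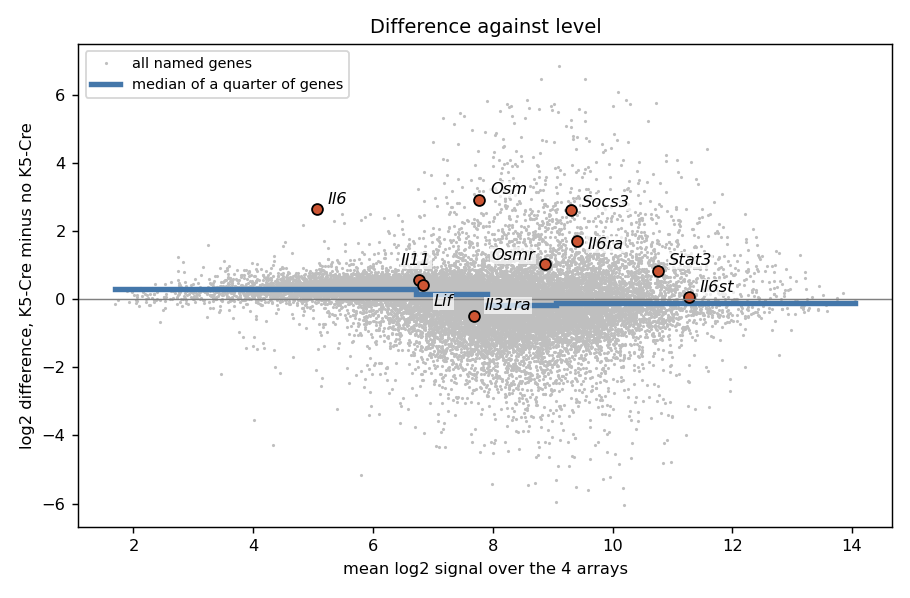
Log2 difference between groups (vertical axis) against mean log2 signal over the 4 arrays (horizontal axis) for all named genes in grey, with the 10 family genes in red. Blue bars mark the median difference of each of 4 level groups, which is 0.30 in the lowest group and −0.10 in the highest. Il11 and Lif lie close to the bulk of genes of their level, and Osm, Il6 and Socs3 lie well above it.

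Osm and Lif are neighbours on chromosome 11, with 0 protein-coding genes between them in RefSeq, and they did not move by the same amount. Osm rose by 2.49 more than Lif on the log2 scale, and relative to the no K5-Cre mean this excess was 2.50 in K5-Cre replicate 2 and 2.48 in replicate 6. The 2 no K5-Cre arrays differed from their mean by 0.01. The exact permutation test of this excess gave p = 0.333, two-sided, the smallest value the design allows. Any excess that separates the groups must give that p, as did each of the 6 pairs of family genes compared this way. The test therefore tells nothing about the size of these excesses.

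The receptor genes went different ways. Il6ra encodes the chain that binds interleukin-6 and is carried by leukocytes and hepatocytes. Its signal was 8.53 and 8.57 without K5-Cre, and 10.04 and 10.45 in replicates 2 and 6. The rise was 1.69 ± 0.16 (adjusted p = 0.000638), or 3.23-fold. It was higher in replicate 6 than in replicate 2, by 0.42.

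Osmr, the receptor chain of oncostatin M, had the least even rise of the 10 genes. It read 8.39 and 8.32 without K5-Cre, 9.88 in K5-Cre replicate 2 and 8.92 in replicate 6. The gap of 0.96 between the arrays labelled K5-Cre was larger than that of 98.9% of all genes, where the median gap was 0.17. The groups did not overlap, and the difference was 1.04 ± 0.30 (adjusted p = 0.03), with a 95% interval from 0.29 to 1.80. Without replicate 2 the difference was 0.56 and without replicate 6 it was 1.52. With no K5-Cre replicate 1 left out the adjusted p was 0.114, and with replicate 3 left out it was 0.121, both short of the threshold.

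Il6st, the chain that most receptors of the family share, read 11.25 and 11.27 without K5-Cre and 11.25 and 11.35 in replicates 2 and 6. The groups overlapped, and the difference was 0.05 ± 0.10 (adjusted p = 0.694). The 95% interval ran from −0.20 to 0.29, so the data exclude neither a small fall nor a rise of up to 1.22-fold. Relative to Il6st, Il6ra rose by 1.65 and Osmr by 0.99 on the log2 scale, the latter by 1.52 in replicate 2 and by 0.46 in replicate 6.

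Il31ra, which pairs with Osmr to form the receptor of interleukin-31, was the only one of the 10 to fall. It read 7.96 and 7.90 without K5-Cre and 7.44 and 7.43 in replicates 2 and 6. Both arrays labelled K5-Cre were lower, and they differed by 0.003 from each other. The gene fell by 0.49 ± 0.09 on the log2 scale (adjusted p = 0.00725), or 1.41-fold. Leaving out no K5-Cre replicate 1 or 3 raised the adjusted p to 0.0899 or 0.0649, past the threshold. The clusters named for the 2 chains of the interleukin-31 receptor thus moved in opposite directions. Osmr rose by 1.53 more than Il31ra, by 2.01 in replicate 2 and by 1.06 in replicate 6. The name of the Osmr cluster rests on the platform annotation alone, as set out below. Il31ra is the neighbour of Il6st on chromosome 13, with 0 protein-coding genes between them in RefSeq.

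Stat3, the transcription factor that carries the signal to the nucleus, read 10.44 and 10.25 without K5-Cre and 11.14 and 11.20 with it. The rise was 0.83 ± 0.11 (adjusted p = 0.00241), or 1.78-fold. It fell short of the threshold, at 0.74, once no K5-Cre replicate 3 was left out (adjusted p = 0.0577). The array measures the RNA of Stat3 and not its phosphorylation. Socs3, the feedback inhibitor, read 8.07 and 7.94 against 10.63 and 10.60, with no overlap and a gap of 0.03 between the arrays labelled K5-Cre. Socs3 rose by 2.61 ± 0.11 (adjusted p = 5.1e-05), or 6.10-fold, which is 1.78 more on the log2 scale than Stat3. The Socs3 cluster lies on chromosome 11 from 117827393 to 117830500, minus strand (mm9). A second cluster annotated to Socs3 read 7.12 and 7.13 without K5-Cre and 8.10 and 8.06 with it, a smaller rise of 0.96 ± 0.10 (adjusted p = 0.0019 over all clusters, of which 24.3% rose and 48.6% were called in either direction). Of the 10 clusters numbered nearest to it in the authors' deposited table, 5 lie on the plus strand of chromosome 11, whereas RefSeq has Socs3 on the minus strand. The same holds for the Osmr cluster, with 7 of its 10 on the plus strand of chromosome 15 and Osmr on the minus strand in RefSeq. Cluster numbers do not fix a position, so for both the gene name rests on the platform annotation alone.

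**Figure D3:**
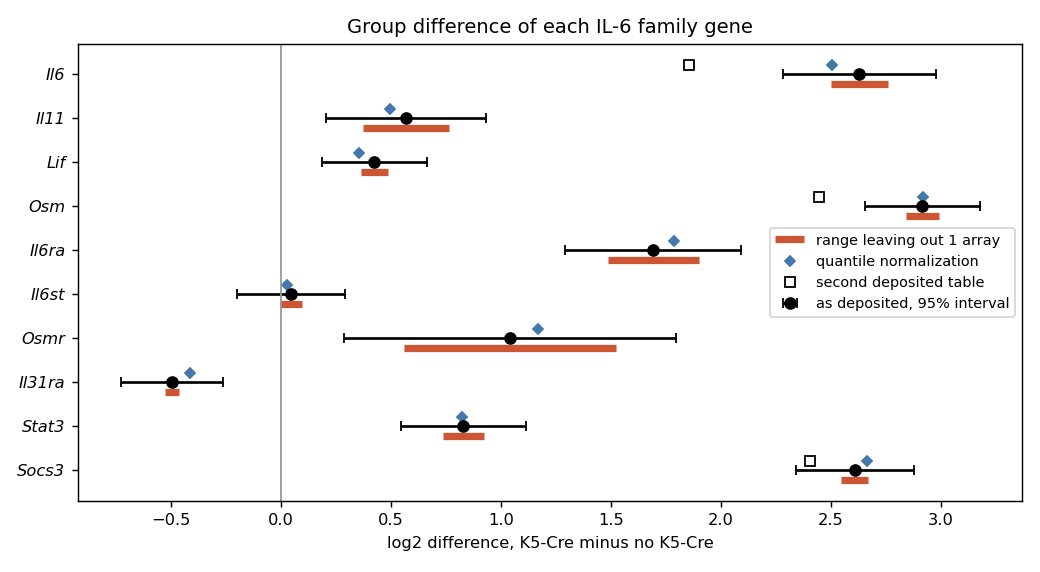
Log2 difference, K5-Cre minus no K5-Cre (horizontal axis), of each family gene with its 95% interval in black. The red bar is the range with 1 array left out, the blue diamond the value after quantile normalization and the open square the value in the second deposited table. Osmr has the widest range, from 0.56 to 1.52, and Il6 the largest shift between the deposited tables.

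Promoter sequences are shown for 4 genes because they hold a site of STAT factors or of AP-1, the factor built from JUN and FOS proteins, and because the genes moved by different amounts. RefSeq windows of build GRCm38.p6, from 250 bases before to 50 after a transcription start, were found for 9 of the 10 genes, Osm being the one with no window here. Both strands were searched for TTCNNNGAA, the form bound by STAT dimers, and for TGANTCA, the form bound by AP-1. These motifs cannot share a full match. Below, the 250 bases before the start are given 5′ to 3′ on the strand of the gene, with the match in capitals.
Socs3, chr11:117969367-117969616, minus strand, STAT form: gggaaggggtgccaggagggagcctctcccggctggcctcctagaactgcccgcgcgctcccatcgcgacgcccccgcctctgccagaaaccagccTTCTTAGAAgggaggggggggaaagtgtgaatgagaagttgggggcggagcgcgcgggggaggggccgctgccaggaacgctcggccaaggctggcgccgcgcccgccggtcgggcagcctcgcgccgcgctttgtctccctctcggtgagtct
Il31ra, chr13:112580663-112580912, minus strand, STAT form: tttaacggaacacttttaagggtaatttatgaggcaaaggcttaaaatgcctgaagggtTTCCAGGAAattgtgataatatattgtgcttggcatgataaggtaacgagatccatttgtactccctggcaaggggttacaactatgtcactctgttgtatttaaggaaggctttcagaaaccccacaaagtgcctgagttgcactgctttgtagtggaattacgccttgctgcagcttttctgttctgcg
Il6, chr5:30012864-30013113, plus strand, AP-1 form: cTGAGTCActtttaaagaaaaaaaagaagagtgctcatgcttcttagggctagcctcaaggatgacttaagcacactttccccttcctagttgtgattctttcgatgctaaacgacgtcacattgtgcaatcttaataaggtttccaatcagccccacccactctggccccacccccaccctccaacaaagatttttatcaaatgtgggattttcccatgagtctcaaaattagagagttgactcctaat
Lif, chr11:4257318-4257567, plus strand, AP-1 form: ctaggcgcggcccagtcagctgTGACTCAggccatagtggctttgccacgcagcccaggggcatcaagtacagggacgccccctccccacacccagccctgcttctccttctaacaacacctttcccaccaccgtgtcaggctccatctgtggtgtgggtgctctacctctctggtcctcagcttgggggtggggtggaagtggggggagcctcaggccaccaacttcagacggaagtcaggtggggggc

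The STAT form was found in the windows of Socs3, starting 154 bases before the start, and Il31ra, starting 191 bases before it. It occurs in 8.30% of all 32851 windows. Socs3 rose by 2.61 and Il31ra fell by 0.49 on the log2 scale, so the 2 genes with this form in the window moved in opposite directions. The AP-1 form was found for 4 of the 9 genes, Il6, Lif, Osmr and 1 of 2 windows of Il11, and in 7.81% of all windows. In Il6 it begins 249 bases and in Lif 228 bases before the start, and in Osmr it lies in the bases after it. Of the genes with this form, Il6 rose by 2.63, Osmr by 1.04, Il11 by 0.57 and Lif by 0.43. The printed windows were picked partly for unlike change, so the contrast of Il6 and Lif is no result about the form. A match of letters describes the window only, and no binding was measured.

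Around the 10 genes, 8 lists of the pathway were examined, which hold 102 other genes with a named cluster. In these lists 64 genes rose, 12 fell and 26 missed the threshold, that is 62.7% and 11.8% against the 30.8% and 27.9% of all genes. Their median difference was 0.62. These shares describe the lists and are no test of them. With either no K5-Cre array left out, fewer of these genes passed in both directions, as among all genes.

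Among 7 other cytokine genes of the family, 6 rose and 1 fell (median 0.58), with no gene short of the threshold, but without no K5-Cre replicate 1 only 2 rose. Ebi3, a subunit shared by interleukin-27 and interleukin-35, rose by 1.79 ± 0.24 (adjusted p = 0.00209). Its log2 signal was 7.42 and 7.71 without K5-Cre and 9.02 and 9.68 with it. Clcf1, whose product acts on the receptor of ciliary neurotrophic factor, rose by 1.43 ± 0.12 (adjusted p = 0.000439). Il12a rose by 0.71, Ctf2 by 0.58 and Il27 by 0.57, and all 3 missed the threshold with no K5-Cre replicate 1 left out (adjusted p = 0.0919, 0.0668 and 0.0905), Il27 also with replicate 3 left out (0.0654). Il31, the ligand of Il31ra, read 6.81 and 6.76 against 7.14 and 7.10, a rise of 0.34 ± 0.09 (adjusted p = 0.0227) whose adjusted p was 0.126 or 0.156 with no K5-Cre replicate 1 or 3 left out. Ctf1, encoding cardiotrophin, fell by 0.28 ± 0.09 (adjusted p = 0.0428), a call that ended after median centring of the arrays (adjusted p = 0.0968), under quantile normalization (0.0698) and with no K5-Cre replicate 1 or 3 left out (0.262 and 0.175).

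Other receptor chains split by gene. Of 8 genes for other receptors and for the enzymes that cut receptors from the cell, 4 rose, 2 fell and 2 did not pass (median 0.32). Lifr, the receptor chain of leukaemia inhibitory factor, fell by 1.85 ± 0.16 (adjusted p = 0.000497), or 3.60-fold, from 9.80 and 9.74 to 7.71 and 8.14. Its ligand gene Lif had risen on the same arrays. Cntfr fell by 0.63 ± 0.21 (adjusted p = 0.0432), with 10.69 and 10.70 without K5-Cre, 10.37 in replicate 2 and 9.76 in replicate 6. That call ended with no K5-Cre replicate 1 or 3 left out (adjusted p = 0.188 and 0.18) and after median centring (0.0602). Adam17 and Adam10, whose products can shed Il6ra, rose by 0.66 and 0.63 (adjusted p = 0.0131 and 0.0157), and neither passed with no K5-Cre replicate 1 left out (0.102 and 0.132) or replicate 3 left out (0.123 and 0.121). Il12rb1 rose by 0.57 and Il12rb2 by 0.32, and Il27ra (0.18, adjusted p = 0.254) and Erap1 (0.32, adjusted p = 0.0879) did not pass. With no K5-Cre replicate 1 left out Il12rb1 and Il12rb2 missed the threshold (adjusted p = 0.0891 and 0.2), and Il12rb2 did so too without no K5-Cre replicate 3 (0.114), without K5-Cre replicate 2 (0.0663) and under quantile normalization (0.128). In all, 0 of the 8 genes rose without no K5-Cre replicate 1 and 1 rose without replicate 3. Erap1 passed after median centring (adjusted p = 0.0433).

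Of 9 genes for JAK kinases, other STATs and the phosphatase gene Ptpn11, 5 rose, 1 fell and 3 did not pass (median 0.56). Jak2 rose by 1.92 ± 0.17 (adjusted p = 0.000552), or 3.78-fold, from 9.32 and 9.40 to 11.04 and 11.52. Jak1, the kinase on which Il6st depends most, differed by 0.11 ± 0.11 (adjusted p = 0.405). Tyk2 rose by 0.52, Stat2 by 0.89, Stat4 by 0.90 and Stat6 by 0.88. When either no K5-Cre array was left out, 2 genes of this list rose and 0 fell. Of the 4 just named, Stat2 passed with either no K5-Cre array left out, whereas Tyk2, Stat4 and Stat6 did not (adjusted p from 0.0524 for Stat6 to 0.206 for Tyk2). Ptpn11 fell by 0.32 ± 0.10 (adjusted p = 0.0382), a call that ended after median centring (adjusted p = 0.0777) and with no K5-Cre replicate 1 or 3 left out (0.316 and 0.295). Stat5a (0.56, adjusted p = 0.0556) and Stat5b (−0.07, adjusted p = 0.753) did not pass. Stat5a passed after median centring (adjusted p = 0.0333).

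Inhibitors of the pathway also split. Of 16 genes, 8 rose, 4 fell and 4 did not pass (median 0.37). Without no K5-Cre replicate 1, 5 rose and 1 fell, and without replicate 3, 5 rose and 2 fell. The rises named next and the fall of Pias2 passed in both. Ptprc rose by 2.25, Ptpn6 by 1.65, Ptpn1 by 1.61 and Cish by 1.16. Ptprc, which encodes CD45, and Ptpn6, which encodes SHP-1, are phosphatase genes of leukocytes, whereas Cish, like Socs3, is itself a target of STAT factors. Pias2 fell by 1.02, Pias3 fell by 0.70, Socs7 fell by 0.58 and Trim28 fell by 0.56. PIAS3 is the PIAS protein known to bind STAT3. Pias3 missed the threshold with no K5-Cre replicate 1 left out (adjusted p = 0.0817), as did Socs7 (0.0868) and Trim28 (0.152), the last pair also with replicate 3 left out (0.0806 and 0.0878).

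Known STAT3 targets were higher in most cases. Of 20 transcription factor and survival genes, 17 rose, 2 fell and 1 did not pass (median 1.05). Bcl3 rose 6.71-fold, Junb 6.16-fold, Fos 5.16-fold and Nfkbiz 4.20-fold, all of them also induced by other inflammatory signals. The cell cycle gene Ccnd1, encoding cyclin D1, fell by 1.58 ± 0.10 (adjusted p = 0.000182), from 11.51 and 11.45 to 9.85 and 9.94. Birc5, encoding the mitotic protein survivin, fell by 0.74 ± 0.11 (adjusted p = 0.00324), and its adjusted p was 0.0595 with no K5-Cre replicate 1 left out. Of 18 secreted and acute phase genes, 12 rose, 0 fell and 6 did not pass (median 0.88), led by Saa3, Lcn2, Ccl2 and Lrg1 at 47.1-fold, 37.3-fold, 15.7-fold and 13.4-fold. Under quantile normalization 10 rose. Only 8 of the 18 lay above the median of all clusters, and the rises included low genes such as Saa1, at 3.80 and 3.62 without K5-Cre.

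Genes that cultured human keratinocytes are known to change under oncostatin M fall into genes of innate defence, which oncostatin M raises, and genes of keratinocyte differentiation, which it lowers. Of 8 such genes 5 rose, 0 fell and 3 did not pass (median 1.95), and the kinds differed. S100a8 rose by 6.84, Defb4 by 5.71, S100a9 by 5.66 and S100a7a by 2.63, all 4 of them genes of innate defence, and S100a8 and S100a9 are also on the neutrophil marker list. None of the differentiation genes fell: Krt1 (0.04, adjusted p = 0.705), Krt10 (0.01, adjusted p = 0.929) and Lor (−0.10, adjusted p = 0.519) did not pass, and Ivl, encoding involucrin, rose by 1.27 ± 0.24 (adjusted p = 0.00675). Among 16 genes of other receptors and ligands that activate STAT3, 7 rose, 2 fell and 7 did not pass (median 0.56). Il24, an epithelial cytokine gene, rose by 4.70 ± 0.37 (adjusted p = 0.000339), to 11.12 in K5-Cre replicate 2 and 9.92 in replicate 6, from 5.79 and 5.84. The neutrophil receptor gene Csf3r rose by 4.61 ± 0.11 (adjusted p = 2.22e-05), and Il10ra and Il10rb by 2.14 and 1.38. Lepr, the leptin receptor gene and a structural relative of Il6st, fell by 3.38 ± 0.10 (adjusted p = 2.6e-05), from 9.53 and 9.46 to 6.07 and 6.15. Il20rb fell by 0.38 ± 0.11 (adjusted p = 0.0275), a call that ended under quantile normalization (adjusted p = 0.111) and with no K5-Cre replicate 1 or 3 left out (0.268 and 0.16).

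**Figure D4:**
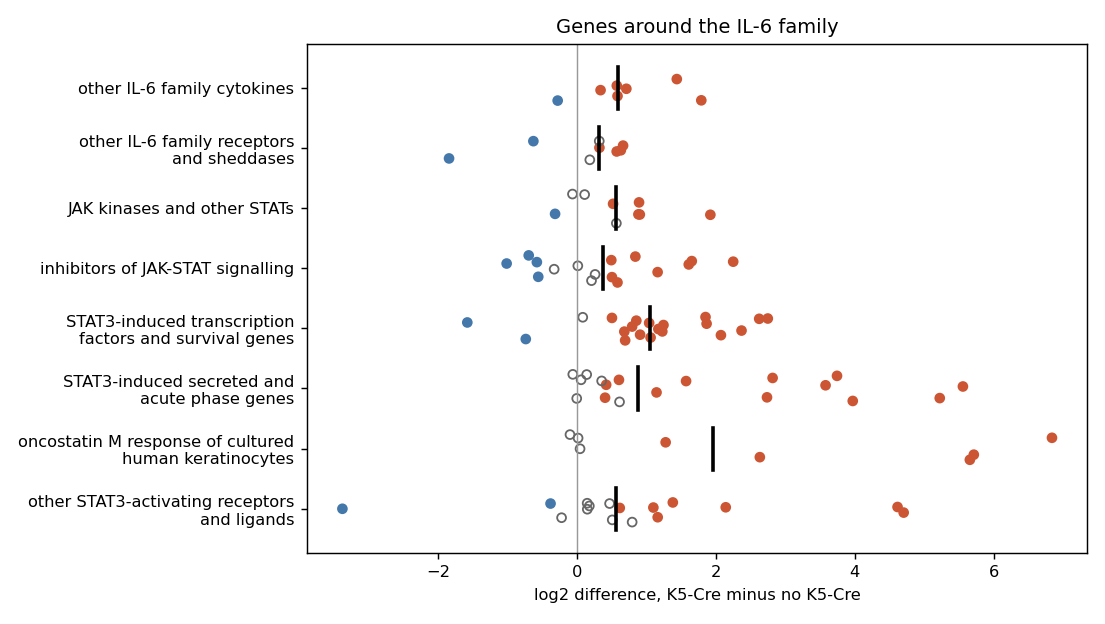
Log2 difference, K5-Cre minus no K5-Cre (horizontal axis), of every measured gene in the 8 pathway lists. Filled points passed an adjusted p of 0.05 (red higher, blue lower), open points did not, and black bars are list medians. The lists of STAT3-induced genes lie mostly to the right, and the receptor and inhibitor lists hold genes on both sides.

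Markers of other cell types moved with these results. All 8 measured neutrophil markers of 9 rose, with a summed linear signal (2 to the power of the log2 value) of 685 and 649.7 without K5-Cre and 28599.9 and 30666 with it. All 8 macrophage and monocyte markers rose, from 2693 and 2820.4 to 15077 in K5-Cre replicate 2 and 22386 in replicate 6. Osm, Il6ra, Csf3r and Ptprc are expressed in such cells, and Csf3r is itself on the neutrophil list. Both sums were higher in replicate 6 than in replicate 2, the neutrophil sum only slightly. Among the measured neutrophil markers, S100a8 and S100a9 were lower in replicate 6 and the others were higher. Il6ra and Ptprc were higher in replicate 6 as well. In replicates 6 and 2, Csf3r read 11.38 and 11.27, and Osm read 9.15 and 9.30. These gaps of Csf3r and Osm were below the median gap of all genes, 0.17. Whether any of these genes follows the cells was not tested. For the 6 basal keratinocyte markers, of which 4 rose, the sums were 16382 and 16361 without K5-Cre, 28703 in replicate 2 and 24925 in replicate 6. The mean log2 signal of these 6 markers was 11.69 in replicate 2 and 11.37 in replicate 6. Of 4 measured suprabasal keratinocyte markers of 6, 1 rose (Ivl) and 3 did not pass, with sums of 35052 and 32953 without K5-Cre, 41052 in replicate 2 and 33142 in replicate 6. All 7 fibroblast markers fell, with sums of 39643 and 37728 against 5623 and 5822, and 5 of 6 markers each of endothelium and adipocytes fell, on the arrays where Lifr, Lepr and Cntfr were lower. All 7 skeletal muscle markers and 5 of 6 mast cell markers fell as well. Of 6 T cell markers, 3 rose, 1 fell and 2 did not pass, and of 3 Schwann cell markers 0 passed. A log2 array signal has no true 0, so whether a marker was absent was not judged. Krt5 and Krt14, which define basal keratinocytes, had mean log2 signals of 13.0 and 12.8 over the 4 arrays. The part of these cell types in the differences above was not tested.

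The 5 genes whose 4 values, each centred on its own mean, lay nearest to those of Stat3 were Iqsec1, Cflar, Mthfd1l, Mir192 and Pfkl, with root mean square differences from 0.02 to 0.03 on the log2 scale. With 4 arrays in 2 groups this likeness says little beyond the size of the group difference. Cflar, the gene targeted in this study, was higher and not lower on the arrays labelled K5-Cre, by 0.83 ± 0.12 (adjusted p = 0.00261). A cluster averages along the transcript, and the labels do not give the floxed part of the gene, so this value does not check the labels and every direction above rests on them.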

How the data were processed

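Per the labels, biotin-labelled total RNA of mouse skin was read on Affymetrix arrays. The deposited table of the series holds 35557 clusters on 4 arrays as log2 values, and the sources used here do not give how the authors normalized them. A second deposited table gives a linear signal intensity for 1396 clusters, which, per the file headers, the authors selected by the 20th percentile and a 4-fold change against no K5-Cre replicate 1, with annotation on mm9. The same deposited table holds the authors' log2 ratio and absolute fold against that array. Its log2 values were higher than the series table by a median of 0.18 to 0.22 per array. Arrays had medians from 7.53 to 7.61, and their number limits the precision. The median SE was 0.12.

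Clusters were named from the platform annotation where it gave exactly 1 symbol (21789 clusters). For 21698 of these the symbol was then taken from a RefSeq gene table, whether or not it differed. The cluster with the highest mean stood for a gene, with no filter on low values, since a filter on the mean over both groups admits a low gene only where a group lifts it. Of the 10 family genes, 7 lay above the median of all clusters, Osm only through the arrays labelled K5-Cre and Il31ra only through those without. The test was limma's (version 3.58.1, R 4.3.3; lmFit and eBayes with a mean-variance trend, two-sided, 5.63 degrees of freedom). The alternatives were a filter at the median, other scalings and variance models, the mean over clusters, and leaving out each array.

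The 10 genes, the lists and the motifs were chosen with earlier results of these data known. Genes named by rule besides the 10 were up to 4 largest rises and falls of each list, every gene of the family lists, and the 5 nearest to Stat3. Cell type markers were given by list, with Krt5 and Krt14 as examples. Saa1, Krt1, Krt10, Lor and Ivl were named outside this rule.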

Additional observations from a re-analysis of the deposited data

How the results depend on the processing

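The direction of the differences of Il6, Il11, Lif, Osm, Il6ra, Osmr, Il31ra, Stat3 and Socs3 was the same under each alternative run. Il6, Osm, Il6ra and Socs3 also stayed past the threshold in each fit that included them. With only genes above the median of all clusters, 11255 genes were tested, of which 2836 rose and 4364 fell. Falls thus outnumbered rises, whereas over all genes 6145 rose and 5567 fell. That filter left out the lowest level group, where 39.6% rose and 6.82% fell. Of the 7 family genes left, 5 rose and 1 fell. Osm was kept by that filter only through the arrays labelled K5-Cre (mean 9.23, against 6.31 without). Il31ra was kept only through the arrays without K5-Cre (mean 7.93, against 7.44). The filtered fit is therefore no separate support for these 2 calls. In the second deposited table, the differences were 1.85 for Il6, 2.45 for Osm and 2.40 for Socs3. Why they were smaller there was not tested. These clusters entered that table by passing a 4-fold change through arrays labelled K5-Cre, so it is no separate support for their rises. Leaving out 1 array gave 2178 to 7567 genes higher and 2924 to 6796 lower, 4 to 8 family genes higher and 0 to 1 lower, and 45 to 71 pathway genes higher and 4 to 15 lower. The lowest counts came with a no K5-Cre array left out, where the spread came from the K5-Cre pair alone, the pair with the larger median gap. Over the same fits, Il11 ranged from 0.37 to 0.76, Lif from 0.36 to 0.49, Osmr from 0.56 to 1.52, Il31ra from −0.52 to −0.46, Stat3 from 0.74 to 0.92 and Il6st from −0.00215 to 0.10. Without no K5-Cre replicate 1, the comparison of CflarF/F genotypes that the study states, 5 family genes rose and 0 fell. Stat5b, which did not pass, was −0.30 and passed without K5-Cre replicate 6, and changed sign to 0.00185 after median centring, 0.061 under quantile normalization, 0.010 without no K5-Cre replicate 1 and 0.16 without K5-Cre replicate 2. No paired analysis was possible because the groups share no replicate numbers. Signal over background was not assessed.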
